A study of Mus musculus with 8 samples.

Results

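Polycomb genes encode the subunits of 2 protein complexes that keep genes silent through marks on histones. Here 9 of them, Ezh1, Ezh2, Eed, Suz12, Bmi1, Ring1, Rnf2, Cbx7 and Cbx8, were taken by name from the 19938 genes measured by a probe set with a single gene symbol. All 9 were found. Only Eed had more than 1 such probe set, and its brighter one was used. RNA from mouse leukaemia-type cultures was read on 8 Affymetrix whole-transcript arrays, whose values are expression levels on the log2 scale, so that a step of 1 is a doubling of signal.

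The cultures labelled Runx1Cbfb-KO (4 arrays) had received 4-hydroxytamoxifen (4OHT) at 1 µM for 24 h, and the Control cultures (4 arrays), labelled Runx1/Cbfb-intact, had received ethanol for the same 24 h. All cultures of both groups descend from c-Kit-positive marrow cells of mice with floxed Runx1 and floxed Cbfb, carry the MLL-AF9 fusion oncogene, CreERT2 and a puromycin resistance gene, and grew in cytokine-enriched methylcellulose. CreERT2 is a recombinase that 4OHT switches on. Both groups comprised 2 independent clones with 2 biological replicates apiece, which makes 4 sets of a Runx1Cbfb-KO and a Control culture with the same clone and replicate number. The labels name no 4OHT-treated culture without floxed alleles, so 4OHT, Cre activity and gene deletion cannot be told apart, and 2 clones are a narrow sample of such lines. Neither the age nor the sex of the mice is recorded in the labels.

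Polycomb repressive complex 2 (PRC2) places methyl groups on a lysine of histone H3. Its enzyme is Ezh2 or the related Ezh1, and it is inactive without the partner subunits Eed and Suz12. Polycomb repressive complex 1 (PRC1) attaches ubiquitin to histone H2A through the ligases Rnf2 (also called Ring1b) or Ring1, joined to a PCGF protein such as Bmi1, and its CBX subunits, among them Cbx7 and Cbx8, recognise the mark made by PRC2. In blood cells Bmi1 is known for sustaining stem cell self-renewal and for silencing the Cdkn2a locus, PRC2 is needed for growth of mouse MLL-AF9 leukaemia, and Cbx8 is known to bind the AF9 part of that fusion. Runx1 is a DNA-binding transcription factor, Cbfb is its partner subunit, and Runx1 has been described to bring PRC1 to DNA through contact with Bmi1.

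The promoters of 9 of 9 genes were found in a RefSeq table of mouse build GRCm38.p6, as windows of 300 bases, 250 before and 50 after the start site. Of the core RUNX recognition motif only the form TGTGGT, on the other strand ACCACA, was searched. This form was present in 1 of the 9 windows, that of Ezh2, against 16.8% of the 32851 promoters in the table. The form TGCGGT, on the other strand ACCGCA, was not searched or marked. The Ezh2 window opens with ACCGCA, and the Ezh1 window also holds it. The TGTGGT match of Ezh2 began 217 bases before the start site. The windows held between 17 (Eed) and 41 (Suz12) CG dinucleotides, against a median of 7 over all promoters, and 31.4% of all promoters held at least 17. A motif match is a description of letters and no binding was measured. The Ezh2 window at chr6:47594981-47595280 and the Cbx7 window at chr15:79932597-79932896, both read 5′ to 3′ on the minus strand, are shown because the arrays of the 2 clones did not overlap for these genes. Of all genes, 9.22% had clone 1 arrays wholly below those of clone 2, and 10.5% wholly above. Capitals mark the searched form of the motif, and the Cbx7 window has none.
Ezh2: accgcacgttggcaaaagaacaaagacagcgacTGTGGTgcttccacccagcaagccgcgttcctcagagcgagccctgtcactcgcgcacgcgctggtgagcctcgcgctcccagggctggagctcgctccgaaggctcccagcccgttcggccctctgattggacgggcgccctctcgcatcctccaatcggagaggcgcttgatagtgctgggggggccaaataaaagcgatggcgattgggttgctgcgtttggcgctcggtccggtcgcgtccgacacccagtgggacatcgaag
Cbx7: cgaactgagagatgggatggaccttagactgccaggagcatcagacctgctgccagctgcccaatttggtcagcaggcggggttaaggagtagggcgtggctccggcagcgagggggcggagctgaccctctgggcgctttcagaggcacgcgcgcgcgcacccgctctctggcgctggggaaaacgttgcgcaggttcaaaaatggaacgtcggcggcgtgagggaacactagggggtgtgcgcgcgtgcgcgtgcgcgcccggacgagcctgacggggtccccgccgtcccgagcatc

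The 9 Polycomb genes were read at unlike levels, from Cbx8 (6.83 to 7.47) up to Suz12 (11.31 to 11.49). The median of all gene means was 6.7. The limit used for a dim signal, 6.30, is the median over all probe sets, and 9 of 9 genes had a mean at or above it. Of the markers that define the cultured cell type, 15 of 15 myeloid progenitor genes had a mean over both clones at or above this limit. Their list medians were 9.93 to 10.42 in KO-labelled arrays and 9.97 to 10.41 in Control arrays. Cd34 and Csf1r of that list lay below the limit in clone 1, at 5.58 to 5.92 and 5.91 to 6.03. In clone 2 they read 11.11 to 11.57 and 6.50 to 7.01. T cell markers had a mean at or above the limit in 0 of 5 cases and mast cell markers in 0 of 6. B cell markers did so in 1 of 5, erythroid markers in 2 of 4 and stromal markers in 3 of 6. Those 3 stromal genes, Col1a1 (7.08 to 7.63), Col1a2 (6.84 to 7.50) and Col3a1 (6.62 to 7.34), read about as high as Cbx8. Passing the limit therefore does not set Cbx8 apart from background. The targeted genes do not settle the labels. Runx1 read 10.58, 10.64, 10.87 and 11.19 in the cultures labelled Runx1Cbfb-KO, against 10.05, 10.12, 10.31 and 10.71 in Control cultures, a log2 change of 0.52 ± 0.04 (SE, limma, n = 4 sets, adjusted p = 1.64e-05) upwards. Cbfb gave -0.18 ± 0.05 (limma, adjusted p = 0.128). Where their probes lie relative to the floxed exons is not given in the sources used here, so neither level checks the deletion, and a group is called KO-labelled for this reason. In such bulk RNA, fewer cells with a transcript and less transcript per cell cannot be told apart.

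None of the 9 Polycomb genes passed the test for a change in KO-labelled cultures. In limma's fit with the set as a block, 0 of 9 had an adjusted p under 0.05 and 0 of 9 had an unadjusted p under 0.05, against 0.953% and 6.47% of all genes tested. The estimates ran from -0.04 (Bmi1) to 0.11 (Cbx7) on the log2 scale, and their 95% intervals spanned KO-labelled to Control ratios of 0.89 to 1.20. The median absolute change was 0.03 for the 9 genes and 0.04 for all genes. A p that misses the threshold does not show that the levels were equal, and these intervals give the sizes of change that the 4 sets leave possible for each gene.

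**Figure D1:**
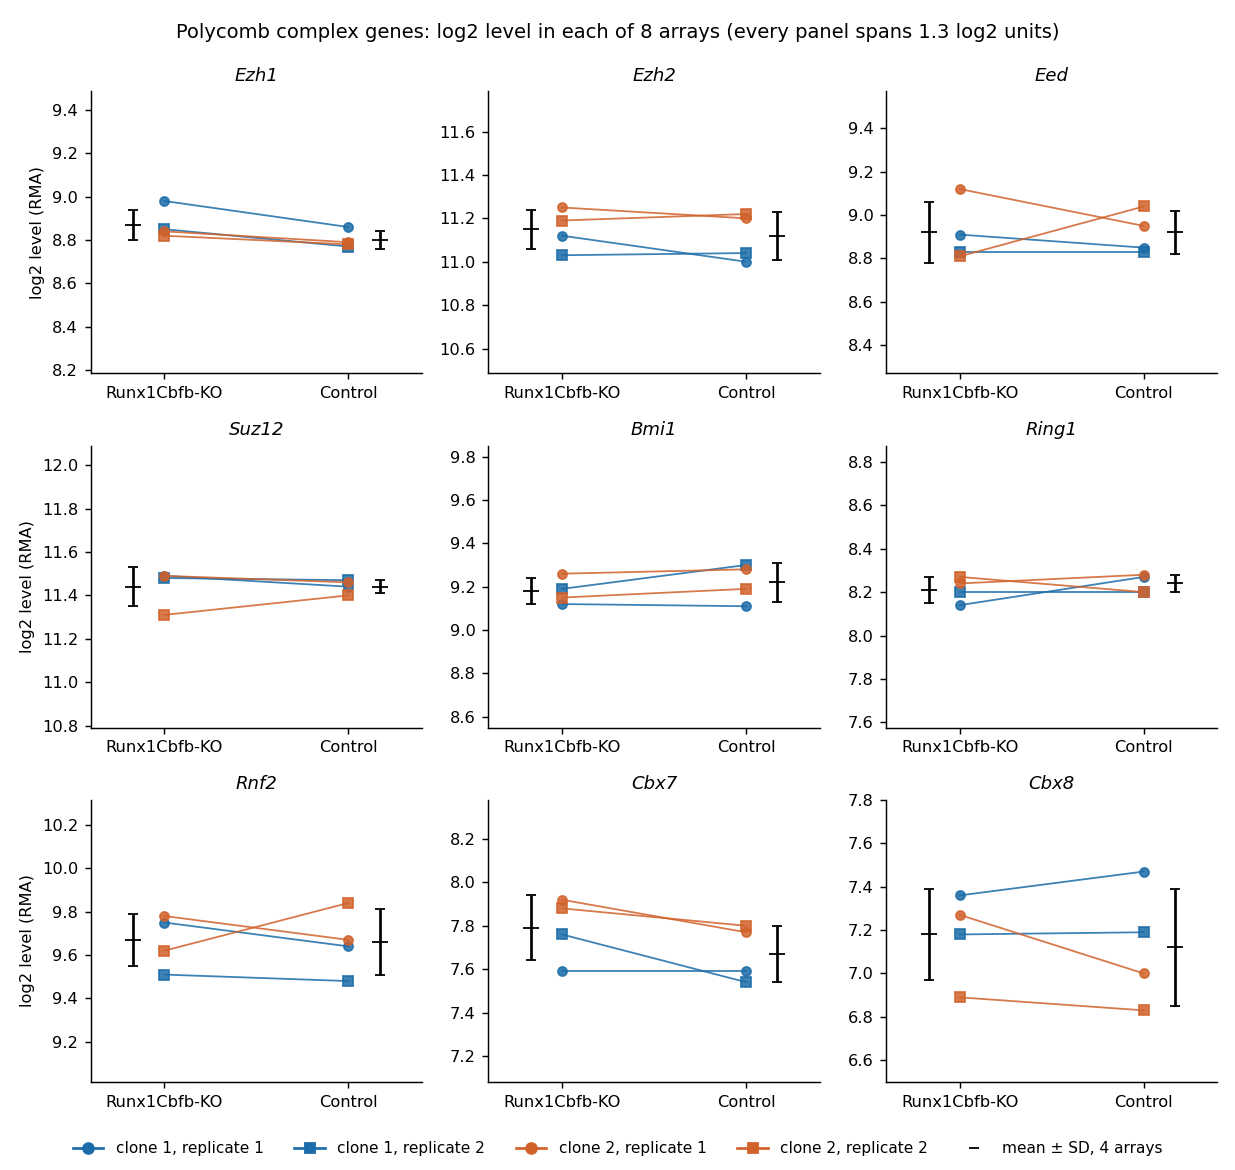
Log2 level of each of the 9 Polycomb genes (vertical axis, 1 panel per gene) in KO-labelled and Control arrays, with a line joining the 2 cultures of a set and bars for the mean ± SD of 4 arrays. The Ezh2 points of clone 1 (11.00 to 11.12) lie below those of clone 2 (11.19 to 11.25) in both groups, while no gene has its KO-labelled points apart from its Control points.

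Ezh2, the main methyltransferase of PRC2 in dividing cells, read 11.12, 11.03, 11.25 and 11.19 in KO-labelled arrays, in the order clone 1 replicates 1 and 2, then clone 2 replicates 1 and 2, which is kept for all genes below. Its Control arrays read 11.00, 11.04, 11.20 and 11.22. The groups overlapped, and the low values in each belonged to clone 1. The log2 change was 0.03 ± 0.03 (SE, n = 4 sets), a ratio of 1.02 with a 95% interval of 0.97 to 1.08.

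Ezh1, the methyltransferase associated with resting and differentiated cells, read 8.98, 8.85, 8.84 and 8.82 in KO-labelled arrays, against 8.86, 8.77, 8.79 and 8.78 in Control arrays. The KO-labelled culture was the higher one within each set, by 0.11, 0.08, 0.05 and 0.04, although the groups overlapped. The estimate was 0.07 ± 0.05 (limma, unadjusted p = 0.198, adjusted p = 1). Of the 9 genes, Ezh1 and Cbx7 had a difference above 0 in 4 of 4 sets, which 6.63% of all genes had, and 0 of 9 had one below 0 in 4 of 4, against 6.51% of all genes.

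Eed, the subunit that binds the methyl mark and stimulates the enzyme, read 8.91, 8.83, 9.12 and 8.81 in KO-labelled arrays, against 8.85, 8.83, 8.95 and 9.04 in Control arrays. The sets of clone 2 moved in opposite directions, with 0.17 in replicate 1 and -0.23 in replicate 2, and the estimate over the sets was 0.00 ± 0.07. A second Eed probe set was dim, with 4.89, 4.87, 5.01 and 4.98 in KO-labelled arrays and 4.96, 5.01, 5.09 and 4.98 in Control arrays. Averaging both probe sets turned the sign of the Eed estimate, to -0.0358.

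Suz12, the scaffold that holds PRC2 together, read 11.49, 11.48, 11.49 and 11.31 in KO-labelled arrays, against 11.44, 11.47, 11.46 and 11.40 in Control arrays. Apart from the second replicate of clone 2, which was the lowest array of each group, the values lay within 11.44 to 11.49. The ratio was 1.00 with a 95% interval of 0.95 to 1.05.

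**Figure D2:**
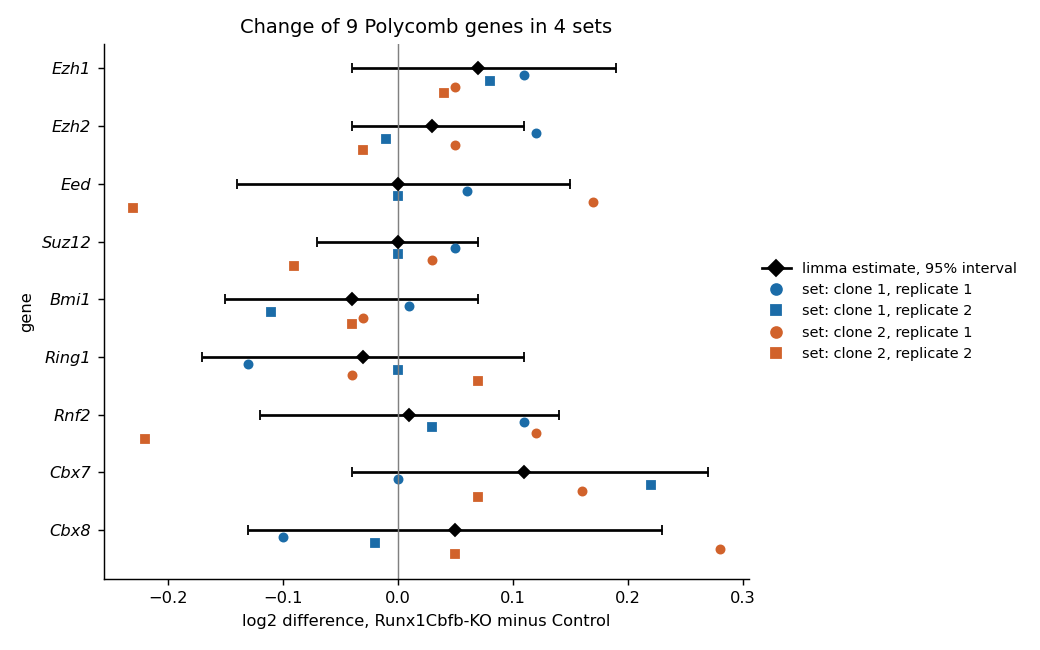
Log2 difference of KO-labelled minus Control (horizontal axis) for each of the 9 Polycomb genes, as the limma estimate with its 95% interval (black) and as the difference in each of 4 sets (coloured points). Every interval includes 0. The set of clone 2 replicate 2 lies lowest for Eed (-0.23), Rnf2 (-0.22), Suz12 (-0.09), Ezh2 (-0.03) and Ezh1 (0.04), and another set lies lowest for the remaining genes. How many of all genes lie lowest in that set was not counted.

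Among the PRC1 genes, Rnf2, the more active of the 2 RING ligases, read 9.75, 9.51, 9.78 and 9.62 in KO-labelled arrays, against 9.64, 9.48, 9.67 and 9.84 in Control arrays. Its sets resembled those of Eed, with 0.11, 0.03 and 0.12 in 3 sets and -0.22 in clone 2 replicate 2, and the estimate was 0.01 ± 0.06. Ring1, the related ligase, read 8.14, 8.20, 8.24 and 8.27 in KO-labelled arrays, against 8.27, 8.20, 8.28 and 8.20 in Control arrays. Its 8 arrays all lay within 8.14 to 8.28, and its ratio was 0.98 with a 95% interval of 0.89 to 1.08.

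Bmi1, the PCGF subunit of canonical PRC1, read 9.12, 9.19, 9.26 and 9.15 in KO-labelled arrays, against 9.11, 9.30, 9.28 and 9.19 in Control arrays. The groups overlapped, and 3 of 4 set differences were below 0, the most negative being -0.11. The estimate was -0.04 ± 0.05, a ratio of 0.97 with a 95% interval of 0.90 to 1.05.

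Cbx7, the chromodomain subunit linked to self-renewal, read 7.59, 7.76, 7.92 and 7.88 in KO-labelled arrays, against 7.59, 7.54, 7.77 and 7.80 in Control arrays. Set differences were 0.00 (just above 0 before rounding), 0.22, 0.16 and 0.07. The groups overlapped because clone 1 was low in both. The estimate of 0.11 ± 0.07 had the smallest unadjusted p of the 9 genes, 0.136 by limma (adjusted p = 1), and a 95% interval for the ratio of 0.97 to 1.20.

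Cbx8, the chromodomain subunit known to bind AF9, read 7.36, 7.18, 7.27 and 6.89 in KO-labelled arrays, against 7.47, 7.19, 7.00 and 6.83 in Control arrays. It was the most variable of the 9 genes, with an SD of 0.23 over the 8 arrays, against 0.05 for Ring1, the least variable. The set of clone 2 replicate 1 gave 0.28 and the other 3 gave -0.10, -0.02 and 0.05. The estimate was 0.05 ± 0.08, with a ratio of 1.04 and a 95% interval of 0.91 to 1.17.

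The change did not pass a test of difference between the clones for any of the 9 genes. In limma's fit with an effect per clone, 0 of 9 passed at an adjusted p under 0.05 and 0 of 9 at an unadjusted p under 0.05, against 0.01% and 1.97% of all genes. Within clone 1, 0 of 9 changed (background 0.181%), and within clone 2, 0 of 9 changed (background 0.682%). The widest gap was that of Cbx8, with -0.06 ± 0.13 in clone 1 and 0.16 ± 0.13 in clone 2, a difference of -0.22 ± 0.18 (95% interval -0.61 to 0.16, limma, adjusted p = 1).

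The sets were also split by replicate number, a comparison chosen after seeing the data. For Eed the change was 0.12 ± 0.08 in the sets numbered 1 and -0.11 ± 0.08 in those numbered 2, a difference of 0.23 ± 0.11 (limma, unadjusted p = 0.0548, adjusted p = 0.285). For Rnf2 the corresponding difference was 0.20 ± 0.10 (limma, unadjusted p = 0.0534, adjusted p = 0.283). In the sets numbered 1, 0 of 9 genes passed (background 0.963%), and in those numbered 2, 0 of 9 passed (background 0.828%). The difference passed for 0 of 9 and for 0% of all genes after adjustment, while 18% of all genes had an unadjusted p under 0.05. The sources do not say whether a replicate number marks a shared experiment.

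Between the clones, Ezh2 and Cbx7 were read lower in every clone 1 array than in any clone 2 array. Of all genes, 9.22% were likewise wholly lower in clone 1 and 10.5% wholly higher. Among Control arrays Cbx8 had the largest difference of the 9 genes. Ezh2, Cbx7 and Cbx8 did not pass the adjusted test in Control arrays. The fit compared clone 1 with clone 2 in Control arrays (n = 2 each) with limma, and 0 of 9 genes had an adjusted p under 0.05 against 3.97% of all genes. Those with an unadjusted p under 0.05 were 2 of the 9, Ezh2 and Cbx8, against 12.3% of all genes. The median absolute clone difference in Control arrays was 0.16 for the 9 genes and 0.10 for all genes. In KO-labelled arrays the order was the reverse, with 0.08 for the 9 genes and 0.13 for all genes. Over both groups together it was 0.13 and 0.11.

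Ezh2 lay between 11.00 and 11.12 in the 4 clone 1 arrays and between 11.19 and 11.25 in the 4 clone 2 arrays. Its clone difference was -0.15 ± 0.06 in KO-labelled arrays (limma, adjusted p = 0.263, background 5.25%) and -0.19 ± 0.06 in Control arrays (limma, adjusted p = 0.166), where the ratio was 0.87. Over both groups together, with the set as a random block, it was -0.17 ± 0.05 and passed (limma, adjusted p = 0.0385, background 9.61%). Ezh2 also passed with array weights, at an adjusted p of 0.0376 by limma, and in 2 of 13 alternatives in all. The adjusted p ranged from 0.0376 to 0.56 over these alternatives.

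**Figure D3:**
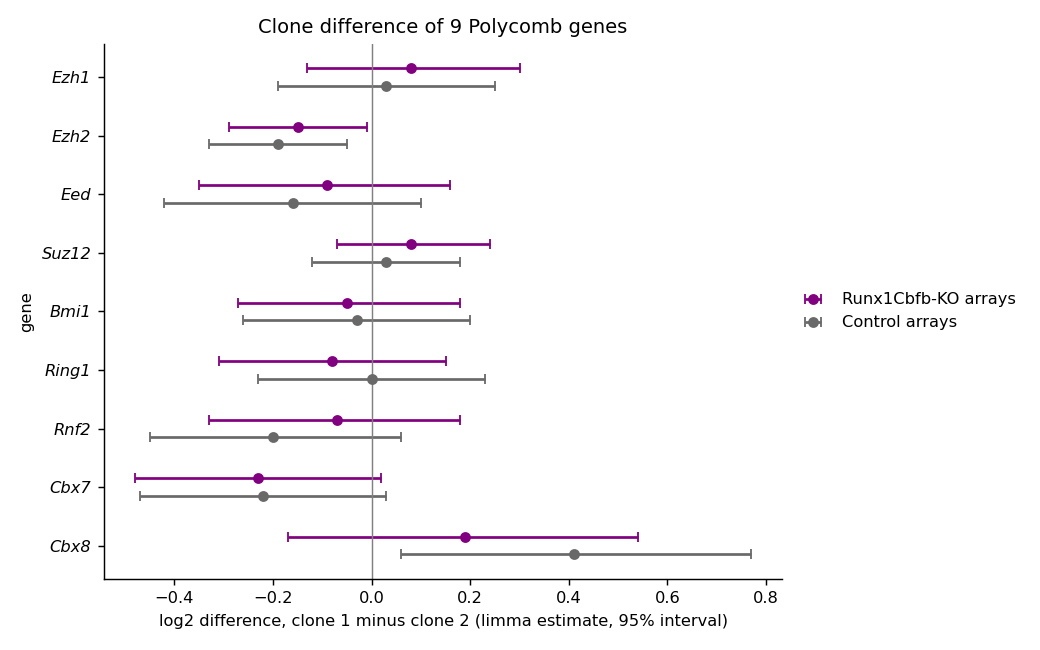
Log2 difference of clone 1 minus clone 2 (horizontal axis) for each of the 9 Polycomb genes in KO-labelled arrays (purple) and Control arrays (grey), as the limma estimate with its 95% interval. The intervals of Ezh2 lie below 0 in both groups, and that of Cbx8 lies above 0 in Control arrays (0.06 to 0.77) but not in KO-labelled arrays (-0.17 to 0.54).

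Cbx7 lay between 7.54 and 7.76 in clone 1 and between 7.77 and 7.92 in clone 2, so the gap between the clones was very small. Its clone difference was -0.23 ± 0.11 in KO-labelled arrays and -0.22 ± 0.11 in Control arrays (limma, adjusted p = 0.489 in Control). Arrays lying wholly below in clone 1 were found for 9.22% of all genes and wholly above for 10.5%. Among the 9 genes the counts were 2 and 0.

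Cbx8 overlapped between the clones, with 7.18 to 7.47 in clone 1 and 6.83 to 7.27 in clone 2. The brighter stromal markers reached similar levels. The Cbx8 clone difference was 0.19 ± 0.16 in KO-labelled arrays and 0.41 ± 0.16 in Control arrays (limma, unadjusted p = 0.0266, adjusted p = 0.284 in Control), a Control ratio of 1.33. Rnf2 gave -0.20 ± 0.11 and Eed -0.16 ± 0.12 in Control arrays. The other 4 genes, Ezh1, Suz12, Bmi1 and Ring1, had estimates within 0.03 of 0 there.

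Marker genes moved beside these comparisons. In KO-labelled cultures 1 of 15 myeloid progenitor markers was higher and 5 were lower (background 0.953%), with Cebpa, a myeloid transcription factor, at -0.66 ± 0.08 (limma, adjusted p = 0.00128). Of 17 S phase and proliferation genes 0 passed, with a list median of -0.025. Among these, 3 of 17 had an unadjusted p under 0.05, against 6.47% of all genes. With no replicate block, and with all probe sets tested, 0 genes of the whole table passed, these markers included. Markers of the myeloid progenitor list differed in Control arrays for 5 of 15 genes, of which 3 were higher and 2 lower in clone 1. Of all genes 3.97% passed in that comparison, a share that also stands beside the clone counts that follow. Cd34, a progenitor surface marker, lay between 5.58 and 5.92 in clone 1 and between 11.11 and 11.57 in clone 2. Of 17 S phase and proliferation genes, Tyms, which makes thymidylate for DNA synthesis, was higher in clone 1 (0.36 ± 0.07, limma, adjusted p = 0.0141), and the list median was 0.051. Of markers of other cell types, 1 of 5 B cell genes, Cd79b, was lower in clone 1 (6.33 to 6.60 in clone 1, 9.27 to 9.69 in clone 2), and 1 of 6 mast cell genes, Ms4a2, was higher in clone 1 (6.27 to 6.52 in clone 1, 5.10 to 5.71 in clone 2), while 0 of 5 T cell, 0 of 4 erythroid and 0 of 6 stromal genes passed. The part of these differences in the Ezh2, Cbx7 and Cbx8 values was not tested.

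The wider Polycomb system was read through 6 lists that hold 74 other measured genes of 79, with 5 not analysed here. In KO-labelled against Control cultures 0 of 74 passed limma's adjusted test and 3 of 74 had an unadjusted p under 0.05, against 0.953% and 6.47% of all genes. Their median change was 0.0045, beside 0.00018 for all genes. The smallest p in each list belonged to Mtf2, Pcgf1, Cbx7, Wdr5, Kdm6b and Igf2bp3. Pcgf1, which forms a variant PRC1, gave 0.11 ± 0.08, Kdm6b, a demethylase of the PRC2 mark, gave -0.10 ± 0.07, and Igf2bp3 gave 0.08 ± 0.04. Mtf2, a PRC2 partner that helps it bind DNA, gave 0.09 ± 0.04 (limma, adjusted p = 0.688), and Wdr5, a subunit of histone H3 methyltransferase complexes that also joins a variant PRC1, gave -0.11 ± 0.04 (limma, adjusted p = 0.544).

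The list of genes that Polycomb complexes are known to silence had 21 measured members, of which 10 had a mean at or above the dim limit. Of these 21 genes 0 passed in either direction, with a median change of 0.025 and a range of -0.13 to 0.14. Cdkn2a, the classical target of Bmi1, read 7.43, 7.34, 6.82 and 6.95 in KO-labelled arrays, against 7.32, 7.38, 6.94 and 6.88 in Control arrays. Its groups overlapped, and the change was 0.01 ± 0.08. By clone its arrays did not overlap, with 7.32 to 7.43 in clone 1 and 6.82 to 6.95 in clone 2. Of all genes 10.5% lay wholly above in clone 1. The Cdkn2a clone difference was 0.49 ± 0.12 in KO-labelled arrays (limma, adjusted p = 0.0348, background 5.25%). In Control arrays it was 0.44 ± 0.12 (limma, adjusted p = 0.0753, background 3.97%).

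**Figure D4:**
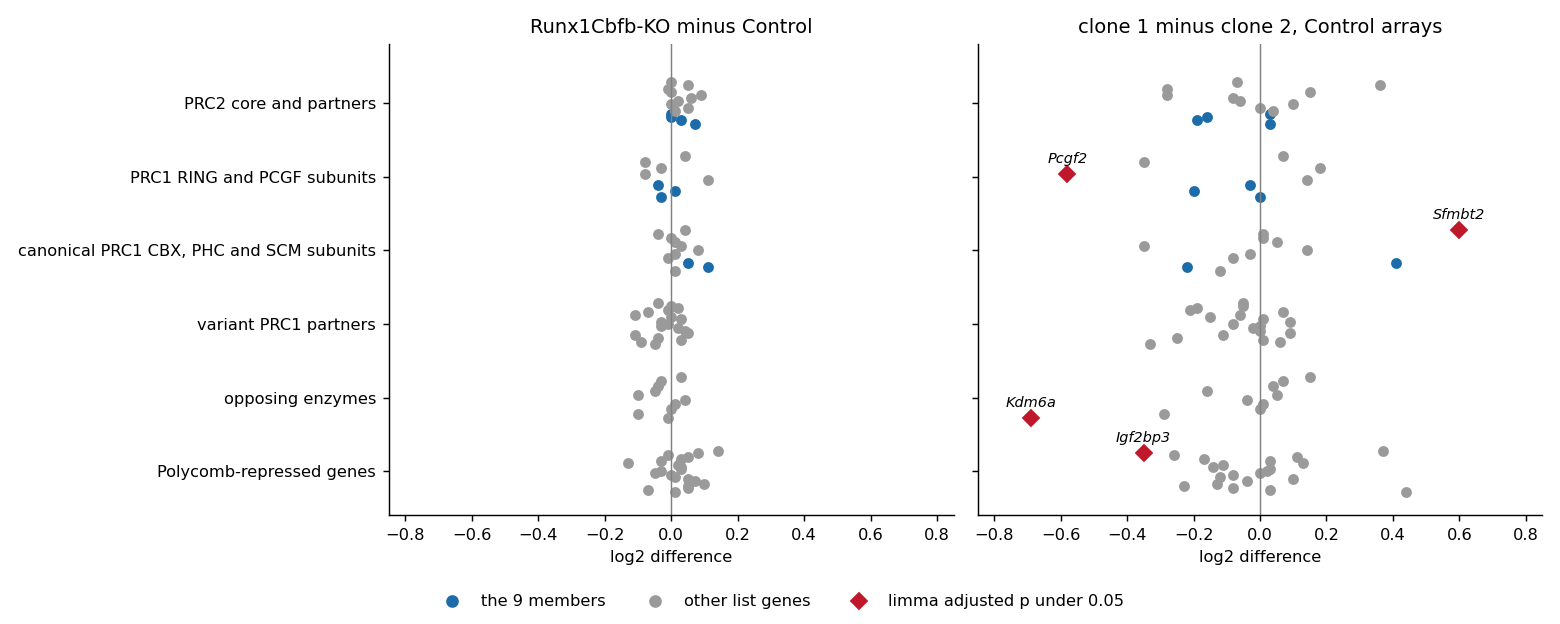
Log2 difference (horizontal axis) of each gene of 6 Polycomb lists, KO-labelled minus Control (left) and clone 1 minus clone 2 in Control arrays (right), with the 9 genes in blue and genes with a limma adjusted p under 0.05 as red diamonds. The changes lie between -0.13 and 0.14, and the clone differences between -0.69 (Kdm6a) and 0.60 (Sfmbt2).

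In the clone comparison of Control arrays, 4 of the 74 other genes passed, 1 higher and 3 lower in clone 1, beside 3.97% of all genes. That share is near the background, so the 4 genes are given for their own values and not as a result about the lists. Kdm6a, a demethylase that removes the mark placed by PRC2, read 9.58 and 9.38 in clone 1 and 10.28 and 10.03 in clone 2 among KO-labelled arrays. Among Control arrays it read 9.52 and 9.45 in clone 1 and 10.19 and 10.17 in clone 2. The clones did not overlap in either group, and the Control difference was -0.69 ± 0.11 (limma, adjusted p = 0.00358), a ratio of 0.62. Kdm6a passed in 13 of 13 alternatives.

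Pcgf2, the close relative of Bmi1, was lower in clone 1 (-0.58 ± 0.13, limma, adjusted p = 0.0352), with 6.14 to 6.51 in clone 1 and 6.88 to 7.05 in clone 2. Sfmbt2, a relative of a fly Polycomb protein with MBT domains, was higher in clone 1 (0.60 ± 0.11, limma, adjusted p = 0.0105), at levels of 5.99 to 6.11 in clone 1 and 5.32 to 5.47 in clone 2, all below the dim limit. Igf2bp3, an RNA-binding protein gene active in fetal tissues, was lower in clone 1 (-0.35 ± 0.08, limma, adjusted p = 0.0363). Though on the list of Polycomb-silenced genes, Igf2bp3 was bright, at 10.31 to 10.41 in clone 1 and 10.64 to 10.86 in clone 2. These 3 calls were lost in some alternatives, where Pcgf2 passed in 8 of 13, Sfmbt2 in 8 of 12 and Igf2bp3 in 7 of 13. Leaving out the first or the second set of clone 1, or the second of clone 2, left 1 of the 4 calls each time, and leaving out the first set of clone 2 left 2. Of the uncalled genes, Mtf2 gave -0.28 ± 0.08 (limma, adjusted p = 0.0904) and Rybp, a variant PRC1 subunit, gave -0.33 ± 0.10 (limma, adjusted p = 0.107).

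Kdm6a lies on the X chromosome and escapes X inactivation, and Uty is its relative on the Y chromosome. Sex-linked genes, chosen after their values were seen, separated the clones. Xist, the RNA of the inactive X, lay between 4.74 and 5.23 in clone 1 and between 11.17 and 11.30 in clone 2, and Uty lay between 8.83 and 9.17 in clone 1 and between 4.08 and 4.39 in clone 2. For Kdm6a, clone and sex-linked expression cannot be told apart with 2 clones.

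**Figure D5:**
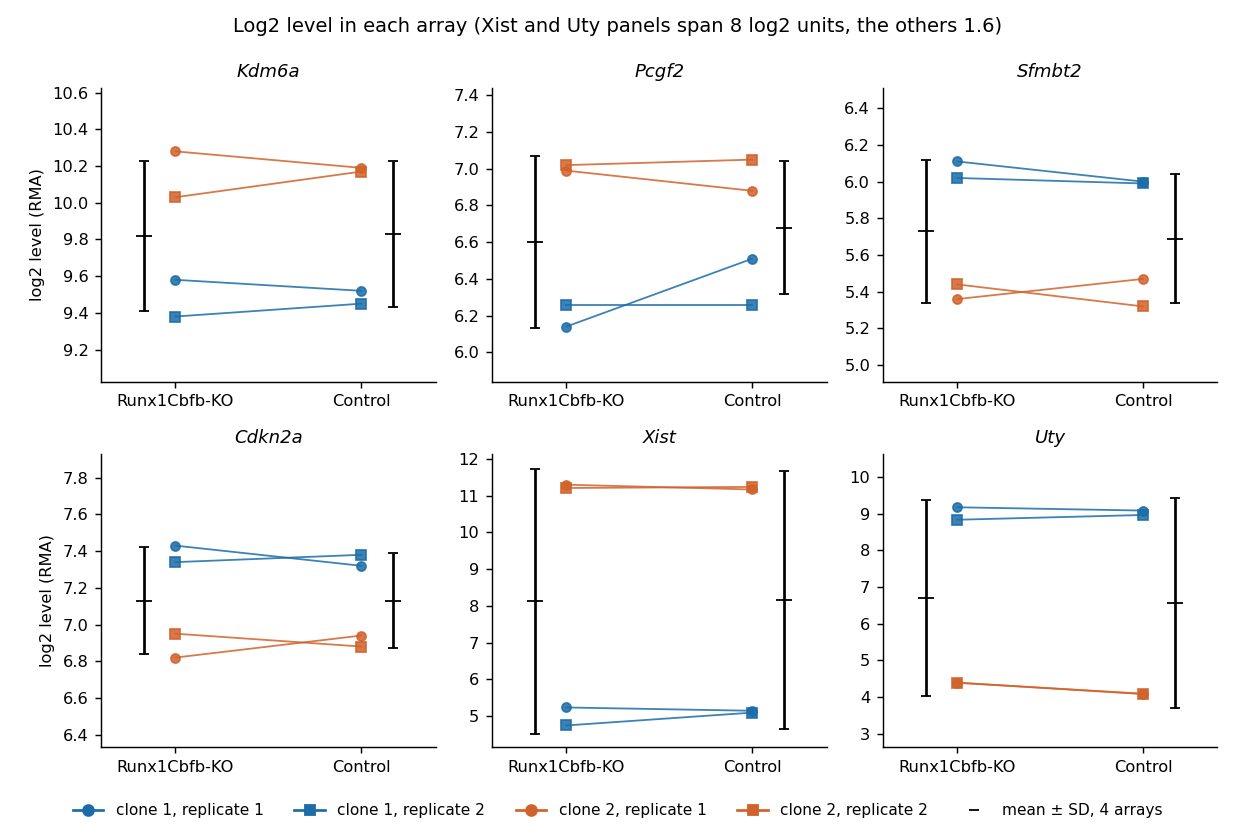
Log2 level (vertical axis) of Kdm6a, Pcgf2, Sfmbt2, Cdkn2a, Xist and Uty in each KO-labelled and Control array, with lines joining the cultures of a set and bars for the mean ± SD of 4 arrays. In every panel the arrays of clone 1 and clone 2 lie apart, for Kdm6a at 9.38 to 9.58 and 10.03 to 10.28, and the KO-labelled and Control arrays overlap.

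Across the 8 arrays the 9 genes followed one another only in part. The highest Pearson correlations between them were 0.82 for Eed with Rnf2, 0.78 for Ezh2 with Cbx7 and 0.74 for Ezh2 with Eed, and the lowest was -0.67 for Ezh1 with Bmi1. These are descriptions over 8 arrays that share clones and sets. Searched against the 9969 genes with an SD of at least 0.12, the genes most like Ezh2 were Kif23 (r = 0.99) and Slc16a13 (r = 0.99). Those most like Cbx7 were Ppp1r13b (r = 0.98) and Sec31b (r = 0.96), those most like Cbx8 were Ccndbp1 (r = 0.97) and Mcemp1 (r = 0.97), and those most like Rnf2 were Rapgef6 (r = 0.96) and Hace1 (r = 0.94). Ezh1 was most like Armcx1 (r = 0.99) and Btf3l4 (r = 0.96), Eed like Crygb (r = 0.94) and Anxa7 (r = 0.94), and Suz12 like Shc1 (r = 0.99) and Zfp322a (r = 0.98). Bmi1 was most like Ptges2 (r = 0.96) and Olfr890 (r = 0.91), and Ring1 like Afap1l2 (r = 0.97) and Slc7a14 (r = 0.96). With 9969 candidates and 8 arrays, such values are among the highest of many.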

How the data were processed

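The deposited table held log2 expression levels for 35556 probe sets on 8 arrays. Per the submitters' processing notes the authors used RMA, a method of background correction, quantile normalization between arrays and median-polish probe summaries, with no version named. The platform annotation gave 21789 probe sets 1 symbol and 1621 several, and 12146 were not listed. The brightest single-symbol probe set per gene left 19938 genes. Array medians lay between 6.26 and 6.39, and the number of arrays limits the precision.

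Fits used limma 3.58.1 in R 4.3.3 with a variance trend, two-sided p-values and a Benjamini-Hochberg threshold of 0.05 across the 19938 genes. The change had the set as a block. The clone comparison fitted a mean per clone and group, with no block, and the change per clone a separate effect in each. The titles and design text give the sets. The 2 arrays of each set deviated together from their group means (r between 0.72 and 0.82, own set best in 4 of 4). Those means were taken over both clones, so the clone difference is part of these r values. With clone and group in the model, limma's consensus correlation within a set was 0.232. P-values set a mean difference against the spread between these cultures, moderated over all genes. In the clone comparisons that spread lies between cultures of the same clone, so these p-values do not cover variation among clones. Scripts were tested on simulated data.

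The members and lists were chosen with earlier results of these data known. Named were the 9 genes, the targeted genes, and per Polycomb list and comparison up to 4 genes past the threshold, or else the 1 with the smallest p. Of the S phase and marker lists only genes past the threshold in the change were to be named. Tyms, Cd34, Csf1r, Cd79b and Ms4a2, and likewise Cdkn2a and the sex-linked genes, were therefore chosen after their values were seen. Likeness is Pearson's r over 8 arrays. Alternatives changed the normalization, the variance trend, the block, array weights, probe-set choice, a dim filter and left-out sets. Promoter sequences are from RefSeq.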

Additional observations from a re-analysis of the deposited data

Results flagged for a closer look

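Suz12 in the KO-labelled array of clone 2 replicate 2 read 11.31, against 11.48 to 11.49 in the other 3 KO-labelled arrays. The gap to the nearest array was 0.91 of the group's whole range, above Dixon's 95% critical value for 4 samples. It was the only one of 39 groups of 4 values to pass this limit, which chance passes for about 1 in 20 groups. The same array had the highest median over all probe sets, 6.39, against 6.26 to 6.29 in the other KO-labelled arrays. Its set gave the lowest difference of the 4 sets for Eed (-0.23), Rnf2 (-0.22), Suz12 (-0.09), Ezh2 (-0.03) and Ezh1 (0.04), but not for Bmi1, Ring1, Cbx7 or Cbx8. The part of the array in these values was not tested.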

How the results depend on the processing

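With no replicate block, 0 of the 9 genes changed, as in all 16 alternatives, while the count over all genes was 0 against 190 with the block (13 without a variance trend, 0 with all probe sets tested, 23 with clone alone, 78 with clone and replicate number as covariates, 388 with array weights, and 98 to 418 without one set). In the clone comparison of Control arrays 1 of the 9, Ezh2, passed with array weights and 1, Ezh2, over both groups with a replicate block. All genes then numbered 1599 and 1916 against 792 (477 with all probe sets tested, 385 to 588 without one set), and other Polycomb genes 9 and 9 against 4 (1 with all probe sets tested, 1 to 2 without one set). Genes whose change differed between clones numbered 0 to 224 against 2, and members 0 throughout.

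Of 144 recomputed changes of the 9 genes 128 kept their direction and side of the threshold and 16 reversed. Suz12, at -0.0009 in the fit reported, gave 0.0098 with array weights, 0.0005 with quantile normalization and 0.0436 in sets numbered 1. Eed turned to -0.0358 with the mean of its probe sets, -0.0027 with quantile normalization and -0.1118 in sets numbered 2, where Ezh2 gave -0.0164, Ring1 0.0355 and Rnf2 -0.0930. Without one set the changes ran from -0.0531 to 0.0784 (Eed), -0.0585 to 0.0095 (Ring1), -0.0263 to 0.0858 (Rnf2), -0.0224 to 0.1042 (Cbx8) and -0.0194 to 0.0295 (Suz12). Of 117 clone differences 6 reversed, Ezh1 with quantile normalization (-0.0030) and, without one set, Ezh1 (-0.0139 to 0.0768), Bmi1 (-0.1242 to 0.0658) and Ring1 (-0.0406 to 0.0348). The cause was not tested. With 4 arrays a group, 2 clones and no detection call, small differences and dim genes are beyond these data.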

Other observations

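Split by replicate number after seeing the data, several lists with a median level near or below the dim limit gave opposite medians in the 2 pairs of sets. Not all their genes were dim, as 10 of 21 Polycomb-silenced and 3 of 6 stromal genes were at or above that limit. The 21 measured Polycomb-silenced genes had a median change of -0.11 in the sets numbered 1 and 0.13 in those numbered 2, the stromal markers -0.1 and 0.12, the B cell markers -0.13 and 0.1, and the T cell markers -0.14 and 0.065. The medians of the difference were -0.2 for the Polycomb-silenced genes, -0.23 for the stromal, -0.25 for the B cell and -0.25 for the T cell markers. They were smaller for the mast cell (-0.17) and erythroid markers (-0.1). The difference passed limma's adjusted test for 0 of the 21 Polycomb-silenced genes and 0% of all genes, and had an unadjusted p under 0.05 for 8 of 21 and 18% of all genes. Medians of the Polycomb-silenced list over single arrays were 6.09 to 6.52 in KO-labelled arrays and 6.14 to 6.28 in Control arrays, near the dim limit of 6.30. The spread was thus wider in KO-labelled arrays. One of these, clone 2 replicate 2, had the highest median over all probe sets (6.39), and the part of single arrays in this contrast was not tested.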
